A study of Canis lupus familiaris with 6 samples.

Results

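The tumour necrosis factor (TNF) ligands and their receptors were examined in MDCK cells, a dog kidney epithelial line, whose RNA was hybridised to canine Agilent arrays in 1 colour. Members were all non-control probes whose gene name on the array was TNFSF or TNFRSF with a number, or was TNF, LTA, LTB, FAS, FASLG, CD40, CD40LG, CD27, CD70, NGFR or EDAR. This rule used names alone and gave 29 of the 34378 names in the gene name column, which holds symbols and identifiers, with 37 of 43603 probes. The cells of all 6 arrays, MDCK-pTR cells with GFP-RasV12 and mCherry-β-catenin Δ131, express a stabilised β-catenin without its N-terminus and, under tetracycline, GFP-tagged RasV12, an active Ras. Below they are called β-cat ΔN/RasV12 cells. In single culture (3 arrays) they grew alone, and in mix culture (3 arrays) each was plated with 10 MDCK cells that carry mCherry-β-catenin Δ131 but no RasV12. Both groups received tetracycline for 24 h on collagen type I, and GFP-positive cells were sorted before RNA was extracted. By design both groups carried RasV12 and the β-catenin, and cells without them were not on these arrays. The HRAS probe changed by -0.62 (SE 0.28) on the log2 scale, mix over single culture, with an adjusted p in limma of 0.608 without a block and 0.0650 with the slide as a block. Whether it binds RNA of the introduced RasV12 is not given in the sources used here, and the part of this difference in the results was not tested. The labels do not say whether replicates came from separate cultures, so p-values measure the spread between these samples, which may be technical.

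Ligands of the TNF superfamily are trimers made as membrane proteins, and many are also cut loose by proteases. They bind receptors of the TNF receptor superfamily. Receptors with a death domain can start caspase-dependent cell death, and other receptors bind TRAF adaptors, which lead to NF-kB and MAP kinases. Decoy receptors bind ligands without passing on a signal. Many ligands are best known from immune cells, while epithelial cells carry several of the receptors.

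Signals below are background-subtracted intensities in the scanner's units, and the normalised log2 signal is the log2 of a signal minus that of the array's 75th percentile. A probe is called when its adjusted p in limma, over all probes tested, is under 0.05. Between 61.1% and 65.7% of non-control spots were well above background on each array. Replicate 1 of each group lay on slide 1 and replicates 2 and 3 lay on slide 2, so the comparison was also made with the slide as a block and within each slide. Of 9 epithelial marker genes 8 were on the array, and each had a probe above background on all 6 arrays. Their summed signal was 79519 to 117720 intensity units in single culture and 69043 to 90695 in mix culture. With the slide as a block 2 CLDN2 probes of this list were higher in mix culture (3.98% of all probes) and 3 CDH1 probes and 1 of 2 TJP1 probes were lower (3.22%). The dimmer of these CLDN2 probes gave 4.77, 5.55 and 5.63 units in single culture and was above background on mix cultures only. It thus entered the test through mix culture alone, and its call rests on single culture signals near the limit of measurement. The brighter CLDN2 probe was the only 1 of the list called without a block (0.883% of all probes). Its log2 change, mix over single culture, was 3.47 (SE 0.53), with an adjusted p in limma of 0.0368. The replicate block kept both CLDN2 calls and none of the lower ones, which had adjusted p in limma of 0.0547 to 0.0786. Of 8 leukocyte genes, PTPRC and MS4A1, which mark leukocytes and B cells, were not above background on any array, while CD3E, CD14 and CD68 were above it on all 6. The summed signal of the leukocyte list was 248 to 350 units in single culture and 248 to 354 in mix culture, and none of its 4 tested probes was called in either fit. Of 4 fibroblast genes 2 had a probe above background on all 6 arrays, and 1, DCN, was above it on none. Of 3 endothelial genes 2 had a probe above background on all 6 arrays, and 0 were dim throughout. None of the 7 fibroblast and 3 endothelial marker probes tested was called in either fit. The part of these differences in the results that follow was not tested.

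The members that differed most between the cultures were TNFRSF14, TNFSF15, TNFSF10 and CD70. The 60-base probes that measured 3 of these genes, and one of both TNFRSF14 probes, are printed to show what was hybridised. They are in lower case, as the array design gives them.
CD70 (chr20:53642115-53642174, plus strand): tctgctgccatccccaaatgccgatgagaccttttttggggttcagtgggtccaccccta
TNFRSF14 (chr5:57414067-57414126, plus strand): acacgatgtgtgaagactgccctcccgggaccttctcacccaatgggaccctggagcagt
TNFSF10 (chr34:36719251-36719310, minus strand): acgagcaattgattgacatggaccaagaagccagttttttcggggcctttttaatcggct
TNFSF15 (chr11:68893100-68893159, minus strand): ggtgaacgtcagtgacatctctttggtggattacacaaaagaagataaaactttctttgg
Positions are those of the array design on CanFam3.1. Exon and UTR annotation of that build was not used here. The TNFRSF14 probe printed is the one on NM_001284454, which had the smaller log2 change, 0.54. The other TNFRSF14 probe, designed on XM_549666, had the larger change, 2.27, and lies at chr5:57416749-57416808 on the plus strand.

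Measurable signal was limited to part of the family. Of 37 member probes 18 (48.6%) were well above background on all 6 arrays, beside 58.8% of all probes. These 18 probes covered 13 genes. They were all the member probes that entered the test, so that no member was tested on the strength of 1 group alone. Another 16 probes were above background on no array, with signals of 0.839 to 5.25 intensity units, where the dimmest probe well above background on an array had 4.19 to 4.48 units. For 13 genes every probe was of this kind. They were the ligands LTB, FASLG, TNFSF4, TNFSF8, TNFSF9 and TNFSF11, the death domain receptors EDAR and NGFR, the TRAF-binding receptors TNFRSF4, TNFRSF9, TNFRSF11A and TNFRSF18, and the decoy receptor TNFRSF11B. TNFSF11 (RANKL), its receptor TNFRSF11A (RANK) and its decoy TNFRSF11B (osteoprotegerin) thus had no probe above background. A dim probe does not show that a transcript is absent.

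**Figure D1:**
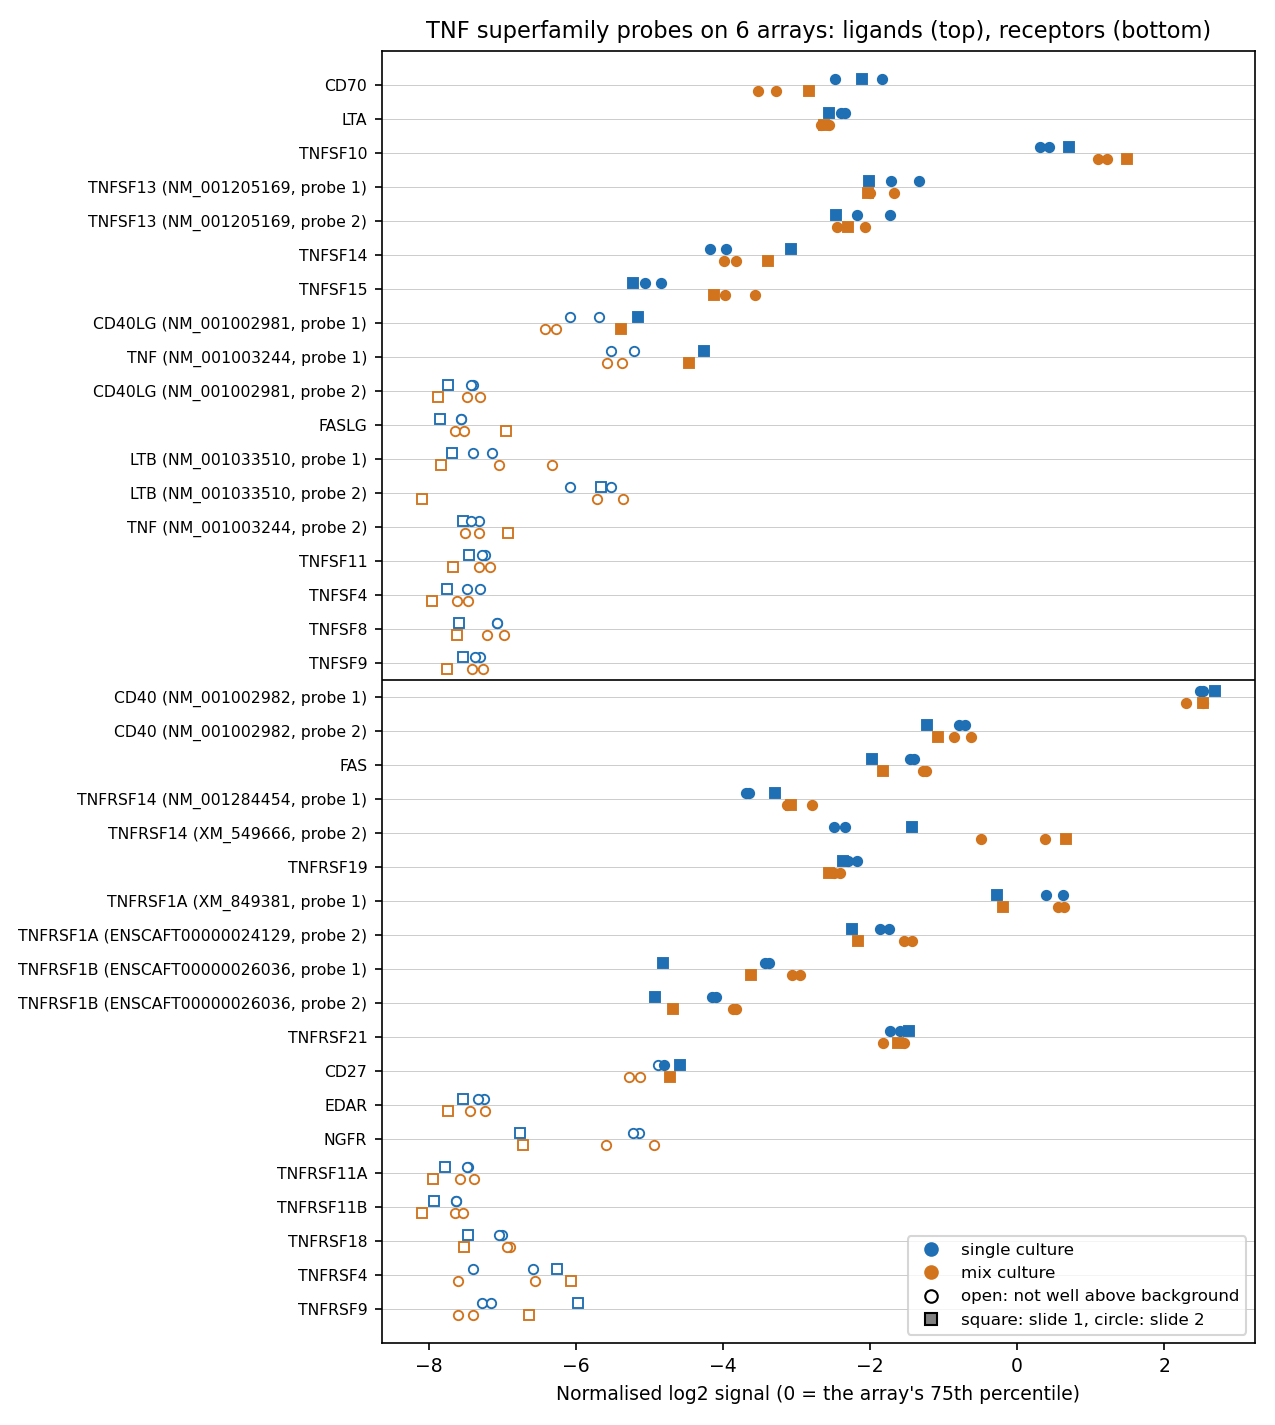
Normalised log2 signal (horizontal axis, 0 being each array's 75th percentile) of the 37 member probes on 6 arrays, one probe per line, with single culture in blue and mix culture in orange. Filled symbols were well above background and open ones were not, squares are slide 1 and circles slide 2. All 18 probes with filled symbols throughout were tested, and levels of different probes are not comparable.

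TNF itself, the ligand that names the family, was near the limit of measurement. One of its probes (chr12:1075962-1076021) gave 10.7, 3.62 and 4.66 units in single culture and 10.6, 4.35 and 3.38 units in mix culture. It was above background only on replicate 1 of each group, the arrays of slide 1, and within that slide the normalised log2 signal differed by -0.21. The other TNF probe was above background on no array. CD40LG, the ligand of CD40 on activated T cells, had 1 of 2 probes above background, again on replicate 1 of each group only. CD27, the receptor of CD70, gave 8.59, 5.66 and 6.17 units in single culture and 8.81, 5.17 and 4.13 units in mix culture, and was above background on 3 arrays, single culture replicates 1 and 3 and mix culture replicate 1. None of these 3 genes could be tested.

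The comparison of both cultures asks which family members differ in β-cat ΔN/RasV12 cells that have β-cat ΔN neighbours. limma called 0 of the 18 member probes at an adjusted p under 0.05, where 0.883% of the 26623 probes tested were called. At an unadjusted p under 0.05 there were 5 member probes (8.71% of all probes). The methods' t-test called 0 after adjustment (0.0300% of all probes) and 6 before it (9.73%). With the slide as a block 3 member probes were called higher in mix culture (3.98% of all probes) and 1 lower (3.22%). The 4 were 22.2% of the members tested, beside 7.20% of all probes. Groups did not overlap for 4 members that were higher (7.85% of all probes) and 2 that were lower (8.66%). The median log2 change was 0.07 over the members, -0.15 over the 7 ligand probes and 0.16 over the 11 receptor probes, beside -0.05 over all probes. Of the members 11 had a positive and 7 a negative change. Changes are given as mix over single culture, errors are an SD over 3 arrays unless called an SE, and a block leaves the fitted change as it is in this balanced design.

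Among the ligands, TNFSF15 (TL1A, a ligand of the death receptor TNFRSF25) gave 5.51, 5.83 and 5.16 units in single culture and 13.3, 15.3 and 10.3 units in mix culture. All 3 mix cultures were above all 3 single cultures, whose signals lay close to the limit of 4.19 to 4.48 units. The normalised log2 signal was -5.04 ± 0.19 and -3.89 ± 0.29, a log2 change of 1.15 (SE 0.20), or 2.22-fold with a 95% interval on the log2 scale of 0.68 to 1.63. limma's adjusted p was 0.0663 without a block, 0.00265 with the slide as a block and 0.00214 with the replicate number as a block. Within slides it was 1.09 on slide 1 and 1.18 on slide 2. After normexp background correction with an offset of 50 units, which compresses such dim signals, it was 0.10.

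TNFSF10 (TRAIL), the ligand of TRAIL death receptors, was bright. Its signal was 334, 226 and 214 units in single culture and 657, 389 and 377 units in mix culture, and the groups did not overlap. The normalised log2 signal was 0.48 ± 0.20 and 1.28 ± 0.20. This gave a log2 change of 0.79 (SE 0.18), or 1.73-fold with a 95% interval of 1.29 to 2.34. Its adjusted p in limma was 0.159 without a block, 0.00407 with the slide block and 0.0107 with the replicate block. Both slides gave nearly the same log2 change, 0.80 on slide 1 and 0.79 on slide 2. TNFRSF11B, a decoy receptor that can also bind TRAIL, was above background on no array.

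CD70, the ligand of CD27, went the other way. Its signal was 47.4, 46.8 and 30.9 units in single culture and 32.7, 15.7 and 16.6 units in mix culture. The groups overlapped in raw signal, at mix culture replicate 1 and single culture replicate 3, which lay on different slides. They did not overlap after each array's 75th percentile was subtracted, with -2.14 ± 0.32 in single culture and -3.21 ± 0.35 in mix culture. CD70 thus had a log2 change of -1.07 (SE 0.25), 2.10-fold lower. Its adjusted p in limma was 0.162 without a block, 0.0168 with the slide block and 0.0256 with the replicate block. The log2 change was -0.72 on slide 1 and -1.25 on slide 2.

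The other ligands tested were LTA (lymphotoxin alpha, which shares receptors with TNF), TNFSF13 (APRIL, a B cell survival factor) and TNFSF14 (LIGHT, a ligand of TNFRSF14). None was called in either fit. The log2 change was -0.19 for LTA, with a 95% interval of -0.53 to 0.16. Both TNFSF13 probes, which share 46 bases and are not independent, had changes of -0.21 and -0.15. TNFSF14 had a change of 0.00, with a 95% interval of -0.75 to 0.75 without a block and of -0.31 to 0.32 with the slide block.

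Several ligand genes are neighbours in the genome and can be compared within a cluster. On chromosome 20 the CD70 probe lay 37.8 kb from that of TNFSF14 and 37.9 kb from that of TNFSF9. CD70 changed by -1.07 on the log2 scale, TNFSF14 by 0.00, and TNFSF9 was above background on no array. On chromosome 11 the TNFSF15 and TNFSF8 probes were 89.3 kb apart, and TNFSF8 was above background on no array while TNFSF15 was above it on all 6. On chromosome 12 the nearest TNF and LTA probes were 2.98 kb apart, and the nearest TNF and LTB probes 3.50 kb. Of these 3 genes LTA alone had a probe above background on every array.

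**Figure D2:**
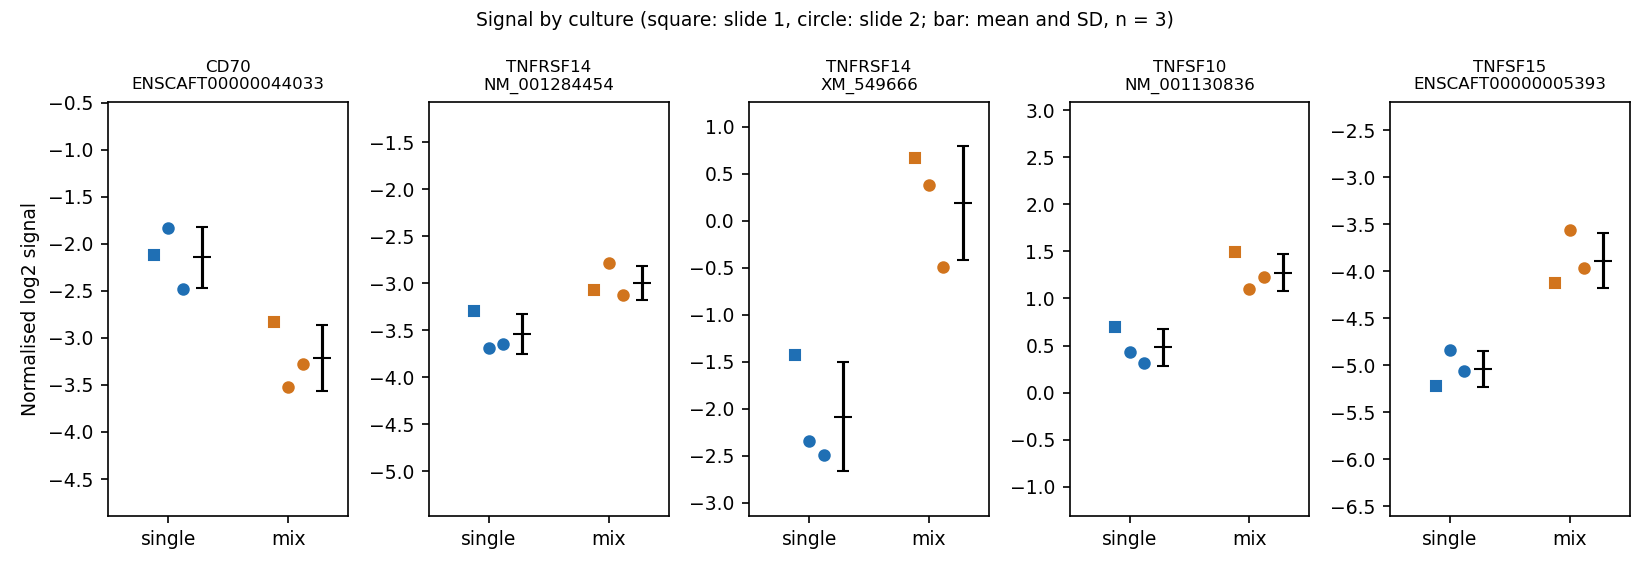
Normalised log2 signal (vertical axis, the same span of log2 units in each panel) by culture for CD70, both TNFRSF14 probes, TNFSF10 and TNFSF15. Points are arrays (square, slide 1; circle, slide 2) and bars are the mean and SD of 3 arrays. The cultures do not overlap in any panel, and the step is widest for the TNFRSF14 probe on XM_549666, from -2.09 to 0.18.

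Among the receptors, TNFRSF14 (HVEM, which binds TNFSF14 and LTA and also ligands outside the family) had the largest difference of all members. The probe on XM_549666 gave 76.6, 32.9 and 30.7 units in single culture and 370, 235 and 115 units in mix culture. The lowest mix culture was above the highest single culture. The normalised log2 signal was -2.09 ± 0.58 and 0.18 ± 0.60. The log2 change was 2.27 (SE 0.39), or 4.82-fold with a 95% interval of 2.56 to 9.08. limma's adjusted p was 0.0587 without a block, 0.000791 with the slide block and 0.000399 with the replicate block. Slide by slide the change was 2.09 on slide 1 and 2.36 on slide 2. Without single culture replicate 1, the highest of its group, the adjusted p was 0.0289. A change in RNA per cell and a change in the share of cells with the transcript cannot be told apart in these sorted populations.

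The other TNFRSF14 probe, on NM_001284454 and 2682 bases away, gave 21.0, 13.0 and 13.8 units in single culture and 27.7, 26.2 and 18.4 units in mix culture. After normalisation its groups did not overlap either, but the log2 change was smaller, at 0.54 (SE 0.18). Its adjusted p in limma was 0.418 without a block and 0.0638 with the slide block. On slide 1 the change was 0.22 and on slide 2 it was 0.71. The log2 ratio of the XM_549666 probe to the NM_001284454 probe was 1.87, 1.34 and 1.15 in single culture and 3.74, 3.16 and 2.64 in mix culture, a difference of 1.73. This pair was compared after its values were seen, and the difference is given with no test. XM_549666 is not listed for any gene in the RefSeq table used for names, so that the transcript behind the larger change rests on the array design's label.

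Both TNF receptors, which LTA shares, were measured. TNFRSF1A, the widely expressed death domain receptor of TNF, gave 170, 256 and 225 units in single culture and 204, 265 and 250 units in mix culture at the probe on XM_849381. These ranges overlapped, with a log2 change of 0.09 (SE 0.31) and of 0.24 (SE 0.25) at a second probe. TNFRSF1B, the TRAF-binding TNF receptor, gave 7.32, 16.1 and 16.0 units in single culture and 18.9, 23.4 and 19.3 units in mix culture at chr2:84146808-84147368. Single culture replicate 1 stood below the other arrays, and the log2 change was 1.19 on slide 1 and 0.40 on slide 2. Over all arrays it was 0.66 (SE 0.41), with an adjusted p in limma of 0.776 and, with the slide block, of 0.0542. Without single culture replicate 1 the change was 0.19. The second TNFRSF1B probe changed by 0.26.

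FAS, the death receptor of Fas ligand, gave 52.5, 60.6 and 65.3 units in single culture and 65.8, 76.9 and 66.3 units in mix culture. Its log2 change was 0.16 (SE 0.24), with an adjusted p in limma of 0.949. CD40, a TRAF-binding receptor known from antigen-presenting cells and also made by epithelia, was bright at one probe. This probe (chr24:33383236-33383295) gave 1328, 939 and 995 units in single culture and 1342, 1041 and 793 units in mix culture. Its log2 change was -0.12 (95% interval -0.48 to 0.24), and that of the second CD40 probe was 0.05 (-0.44 to 0.53). TNFRSF19 (TROY) had groups that did not overlap after normalisation, but its change was -0.20 (SE 0.15), with an adjusted p in limma of 0.819 and, with the slide block, of 0.243. TNFRSF21 (death receptor 6) changed by -0.06. Across the 13 member probes with an unadjusted p of 0.05 or more, fitted changes ran from -0.21 to 0.66 and the 95% bounds from -0.75 to 1.63.

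**Figure D3:**
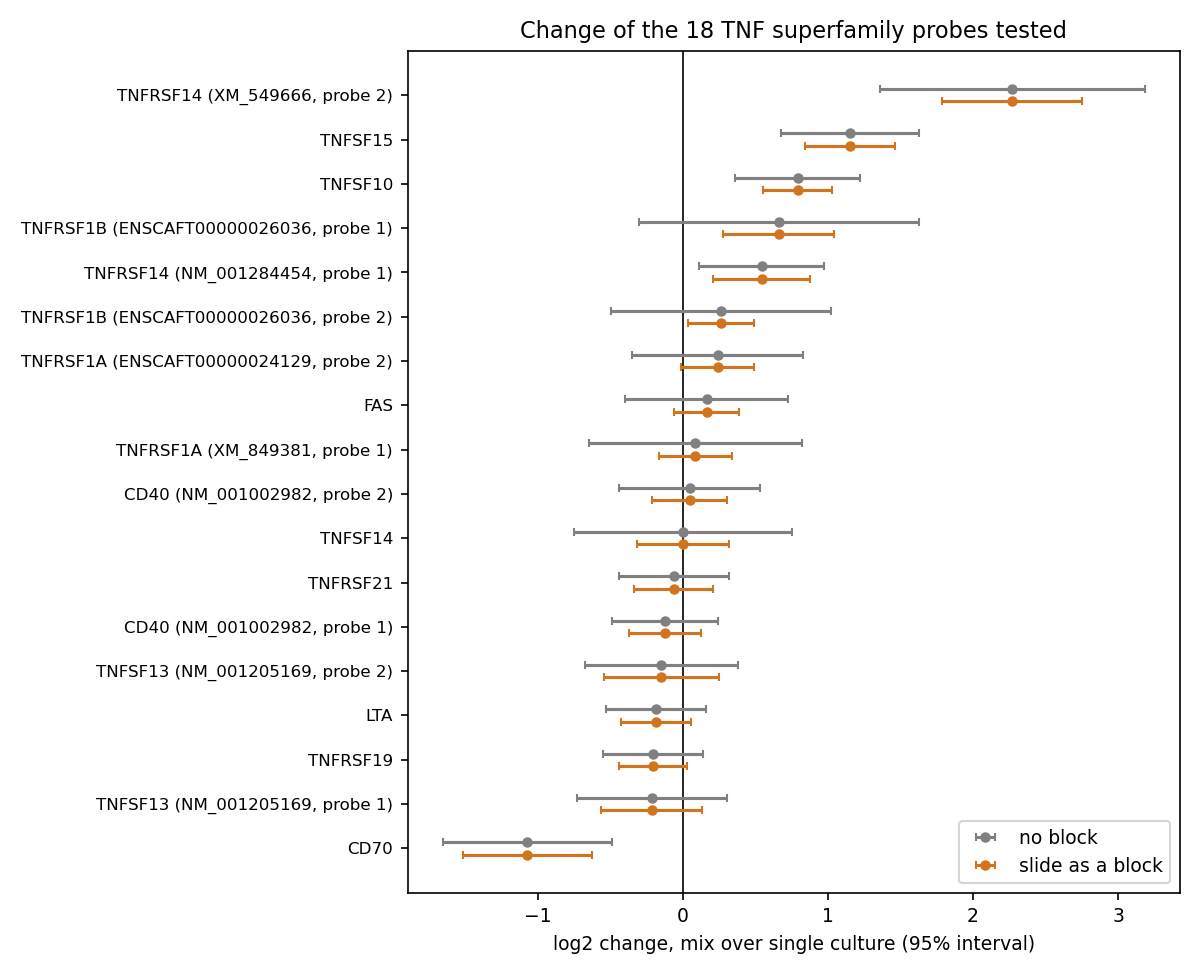
Fitted log2 change, mix culture over single culture (horizontal axis), of the 18 member probes tested, with 95% intervals from limma without a block (grey) and with the slide as a block (orange). The change runs from -1.07 for CD70 to 2.27 for the TNFRSF14 probe on XM_549666, and most other probes lie near 0.

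For 2 ligands, TNFSF14 and LTA, a receptor among the members was also above background on all arrays. TNFSF14 was at 0.00 while its receptor TNFRSF14 was at 2.27 and 0.54. LTA, which also binds TNFRSF14, was at -0.19 while TNFRSF1A was at 0.09 and 0.24 and TNFRSF1B at 0.66 and 0.26. For CD70 and CD27, TNF and its receptors, CD40LG and CD40, and FASLG and FAS, 1 partner was dim on some or all arrays.

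The genes that carry signals from these receptors were described through a list of 39 adaptors, ubiquitin enzymes and kinases, of which 32 were on the array and 30 were tested, with 54 probes. limma called none of them without a block (0.883% of all probes), and 9 had an unadjusted p under 0.05 (8.71%). The methods' t-test called 0 (0.0300% of all probes), and 9 before adjustment (9.73%). With the slide block 6 probes were higher (3.98% of all probes) and 2 lower (3.22%), and with the replicate block 3 of 54 were called (5.25% of all probes), CASP10 and the 2 TNIP1 probes with the larger change. The median log2 change was 0.15, with 38 positive and 16 negative changes, beside a median of -0.05 over all probes. The MAP3K14 probe (0.57) and the dimmer TAB3 probe (0.24) were above background on all mix cultures but only on replicate 1 of single culture. They entered the test through mix culture alone. Both count among the positive changes, and MAP3K14 also among the 9 with an unadjusted p under 0.05. TNIP1, a partner of the NF-kB inhibitor A20, was higher at all 3 of its probes with the slide block, by 0.59, 0.65 and 0.65. Its brightest probe gave 4244, 3338 and 3036 units in single culture and 7395, 5209 and 4946 units in mix culture. CASP10, an initiator caspase of death receptors, gave 35.4, 35.7 and 40.4 units and 59.4, 66.7 and 62.7 units, a log2 change of 0.69 with an adjusted p in limma of 0.00836 with the slide block and 0.371 without it. MAP3K5 (ASK1), a kinase upstream of JNK and p38, was lower at both probes with the slide block, by -0.53 and -0.66. Neither MAP3K5 probe was called with the replicate block, with adjusted p in limma of 0.0658 and 0.0599. RNF31, a subunit of the linear ubiquitin ligase, and TBK1 were higher with the slide block at 1 of 3 and 1 of 2 probes. TRAF1 and TRAF5 had no probe above background.

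Cutting of ligands and receptors from the surface was described by ADAM17 (TACE), ADAM10 and the rhomboid-like ADAM17 partners RHBDF1 and RHBDF2. None of their 7 probes was called with or without the slide block in limma. Without it 0 had an unadjusted p under 0.05 (8.71% of all probes), and the methods' t-test called 0 (0.0300%). The 3 ADAM17 probes had the largest changes, -0.28, -0.24 and -0.14. RHBDF2 changed by -0.12 and the RHBDF1 probes by -0.06 and 0.12, and the median was -0.12.

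Of 22 genes known to respond to TNF through NF-kB in epithelial cells 20 were on the array and 14 were tested, with 22 probes. limma called 1 of these probes (0.883% of all probes), and 7 had an unadjusted p under 0.05 (8.71%). The call was CCL20, a chemokine, with 4.89, 7.41 and 3.65 units in single culture and 86.3, 59.7 and 49.0 units in mix culture, a log2 change of 3.57 (SE 0.29, adjusted p in limma 0.00297). It was above background on all mix cultures but only on replicates 1 and 2 of single culture, so that it entered the test through mix culture and its fold rests on single culture signals near the limit of measurement. With the slide block 3 probes were higher (3.98% of all probes), CCL20 and both probes of NFKBIA, the inhibitor that NF-kB induces, which changed by 0.73 and 0.76. Both probes of CSF2, the growth factor GM-CSF, were lower (3.22% of all probes), by -1.70 and -1.72. On slide 1 they changed by -0.93 and -0.88 against -2.08 and -2.14 on slide 2. The replicate block called 5 of the 22 probes (5.25% of all probes). The methods' t-test called 0 (0.0300% of all probes), and 5 before adjustment (9.73%). For CCL20 the adjusted p of that t-test was 0.124. The median was 0.24, with 16 positive and 6 negative changes. The tested CCL2 probe (0.65) was above background on all mix cultures but only on replicate 1 of single culture. Like CCL20, it entered the test through mix culture alone. Both count among the positive changes and among the 7 with an unadjusted p under 0.05. TNFAIP3, BIRC3 and TRAF1 stood in this list and in the signalling list, and CXCL8 and IL6 were not tested. These values do not show which signal acted on the cells.

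**Figure D4:**
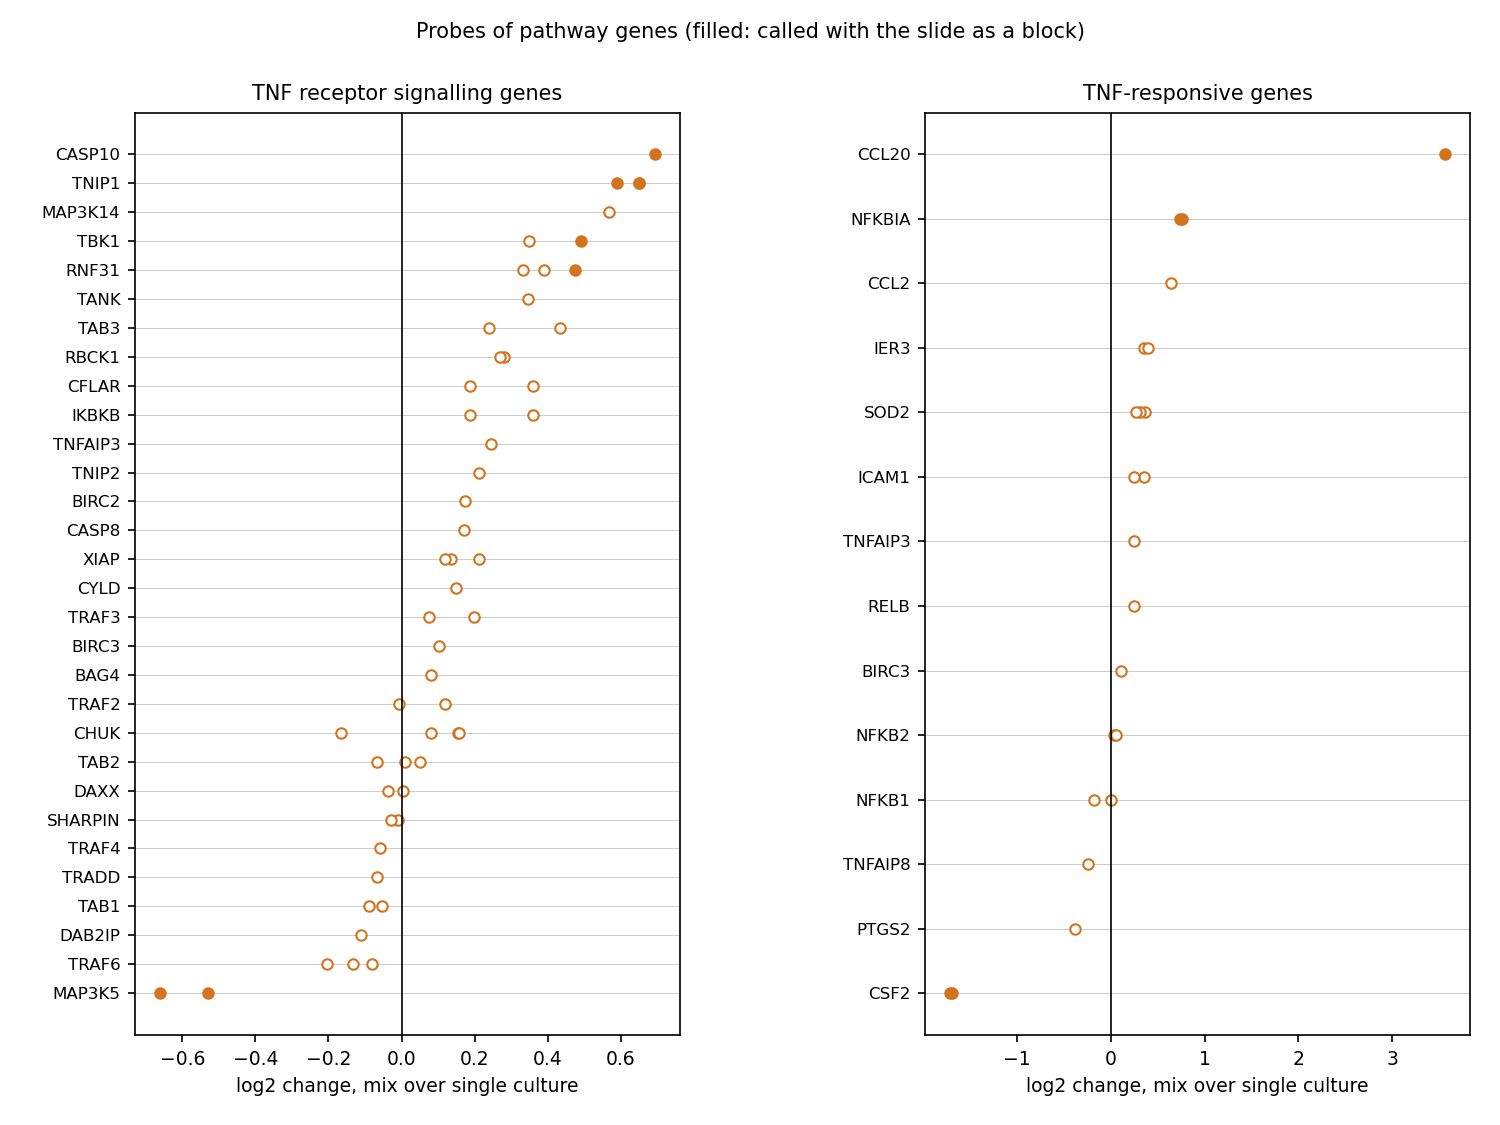
Log2 change, mix culture over single culture (horizontal axes, on different scales), of the tested probes of TNF receptor signalling genes (left) and TNF-responsive genes (right), one gene per line and one point per probe. Filled points were called with the slide as a block. CASP10 and TNIP1 lie at the top and MAP3K5 at the bottom on the left, and CCL20 at 3.57 and CSF2 at -1.70 and -1.72 at the ends on the right.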

How the data were processed

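Gene expression was measured on 6 single-colour arrays of sorted cells. Per the file headers, the authors used Agilent Feature Extraction 11.5.1.1 (slide 1) and 12.1.1.1 (slide 2), and deposited background-subtracted intensities per spot, which are linear and not scaled between arrays. They also deposited a table of log2 values centred per probe within each slide, used here as an alternative. This table was fitted without a block although its slide means were already removed, so its p-values come out too small. In it the columns of mix culture replicates 2 and 3 followed each other's scanner values. The titles gave each sample's group and replicate number.

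From the scanner values, log2 signals were averaged over the spots of a probe and set relative to the array's 75th percentile. Control spots and 5 to 9 flagged spots per array were dropped, and saturation did not occur. Tests covered the 26623 probes that were well above background throughout 1 group or both and had no flagged array. The cultures were compared by limma's lmFit and eBayes (limma 3.58.1, R 4.3.3), two-sided, and calls were made at an adjusted p under 0.05 (Benjamini-Hochberg, over all probes tested). The steps were tested on simulated data. The number of arrays limits the precision.

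The replicate block took the numbers to pair the samples, which the labels do not state. Deviations from the group means were correlated between arrays of the same number (0.801, 0.53 and 0.572). On slide 2 they were correlated more between arrays of different number (0.61 and 0.632), so these values do not show which arrays of that slide pair. Replicate 1 lay alone on slide 1, so its correlation cannot be told apart from a difference between slides.

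All 29 member symbols were found in a table of RefSeq genes (dog assembly UU_Cfam_GSD_1.0), which served only for names. Members and lists were chosen with earlier results of these data known. One marker gene is not reported here. The text gives every member, per-array values for members called with or without the slide block, for those with the 6 largest changes and for TNF, TNFRSF1A, FAS and CD40, and for each list the called genes and the 3 largest changes. Alternatives were both blocks, slide 2 alone, quantile normalisation, normexp on the median spot signal, other filters on dim probes, the authors' table, the methods' t-test and leaving out each array.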

Additional observations from a re-analysis of the deposited data

How the results depend on the processing

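The 235 probes called over the whole array became 1917 with the slide block, 1399 with the replicate block and 1446 with the replicate block after mix cultures 2 and 3 were crossed. They became 143 among probes above background on all 6 arrays, 101 with normexp, 4077 with the authors' table, 983 on slide 2 alone, 8 with the methods' t-test, and 86 to 242 when 1 array was left out. Counts with the authors' table, here and below, rest on p-values that are too small, as stated above. Of the TNF superfamily 0 probes were called in the main comparison, 4 with the slide block, 4 with the replicate block, crossed or not, 7 with the authors' table, 4 on slide 2 alone, and 0 to 1 without 1 array. The 1 call, for TNFRSF14, came without single culture replicate 1. The 0 signalling probes called became 8, 3, 4 (crossed), 11 with the authors' table and 3 on slide 2 alone, and stayed at 0 without any 1 array. The members' median change of 0.07 ranged from -0.0079 to 0.254 without 1 array, the highest without mix culture replicate 1. The cause was not tested.

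Small changes turned sign without 1 array. The TNFRSF1A probe on XM_849381 ranged from -0.17, when single culture replicate 1 was left out, to 0.35, when mix culture replicate 1 was, and was also below 0, at -0.02 and -0.06, when mix culture replicate 2 or 3 was left out. FAS ranged from -0.014 to 0.35 and the second CD40 probe from -0.11 to 0.16 over the same arrays, and the latter was -0.07 when mix culture replicate 2 was left out. The changes of TNFRSF14, TNFSF15, TNFSF10 and CD70 kept their sign under normexp, quantile normalisation and the authors' table, though not always their size. The other alternatives could not turn it. Blocks, filters on dim probes and the t-test left the fitted change as it was. Leaving out arrays cannot reverse a change between groups that do not overlap. Under normexp CD70 had -0.38, TNFRSF14 0.12 on NM_001284454, and TNFRSF1B 0.08. Signals within a few units of background, as for TNFSF15 and TNF, limit what these arrays can show.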

Other observations

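Further probes carry a family name only in the array's description and lie outside the rule on gene names, so they are given as values. They were looked up after the data were seen. With the slide block 3.98% of all probes were called higher and 3.22% lower. The probe described as TNFRSF6B, a decoy receptor, gave 51.7, 121 and 123 units in single culture and 117, 221 and 188 units in mix culture. Its log2 change was 0.82 (SE 0.51), with an adjusted p in limma of 0.780 without a block, 0.0043 with the slide block and 0.0107 with the replicate block. The probe described as TNFRSF12A, the receptor of TWEAK, changed by -0.58 (adjusted p in limma 0.693 without a block, 0.0202 with the slide block and 0.0418 with the replicate block). The probe described as TNFRSF8 (CD30) changed by -0.48 (adjusted p in limma 0.435, 0.0310 and 0.0625 in the same order), so that it was not called with the replicate block. A probe described as TNFRSF25, the receptor of TNFSF15, was above background on all 6 arrays and changed by 0.03. A probe on chromosome 2, of a transcript described by likeness to Fas ligand, was above background on all 6 arrays. It changed by 0.26, with an adjusted p in limma of 0.764. The FASLG probe, which was above background on no array, lies on chromosome 7, so the chromosome 2 probe does not measure that gene's position. None of the remaining probes looked up was called in either fit. The probes described as TNFRSF21, on chromosomes 12 and 16, changed by -0.21 and -0.22. RELT changed by 0.19 and a probe overlapping those of TNFSF13 by -0.22. EDA and the probes described as TNFRSF17 and TNFSF18 were not tested.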
